A study of Homo sapiens with 2 samples.

Results

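The genes described here are readouts and regulators of bone morphogenetic protein (BMP) signalling. They comprise the inhibitors of differentiation ID1, ID2, ID3 and ID4, the ligands BMP4 and BMP7, the inhibitory SMAD6 and SMAD7, the decoy receptor BAMBI and the homeobox factor MSX2. They were chosen by name, and all 10 were among the 33694 gene names of both count tables. Their levels were followed across the annotated cell types and subclusters of human enteric neural crest cultures at 2 stages.

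BMP ligands bind pairs of type I and type II receptors, which phosphorylate SMAD1, SMAD5 and SMAD9, and these enter the nucleus with SMAD4. The ID genes are among the most direct targets of this route, and their products bind E proteins such as TCF3, TCF4 and TCF12 and keep them from pairing with tissue-specific bHLH factors such as NEUROG1. SMAD6, SMAD7 and BAMBI act back on the receptors and dampen the signal, and MSX2 is a target at the border of the neural plate. In the embryo a graded BMP signal helps to part neural plate, neural crest, placodes and surface ectoderm, and BMP4 later acts on crest cells that colonize the gut.

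H9 is an established line of human embryonic stem cells, and its cells were differentiated here towards enteric neural crest cells (ENCCs). All cells had seen recombinant BMP4 in the opening medium together with SB431542, which blocks the TGF-beta and activin receptors, and CHIR 99021, a WNT pathway activator, and later media held SB431542 and CHIR 99021, then also retinoic acid, without added BMP4. The day 10 library came from cultures adhering to Geltrex during the retinoic acid step, and the day 15 library from free-floating crestospheres kept in FGF2 and CHIR 99021. Each library pooled a pair of repeats that the files do not separate, so each stage was 1 sample and stage, culture format, medium and library cannot be told apart.

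The day 10 library held 9627 cells and 70488169 unique molecular identifiers (UMIs), and the day 15 library 6320 cells and 84976253 UMIs. Of these, 7295 and 5336 cells passed the authors' quality limits and carried a type, and 102 cell barcodes occurred in both libraries. Levels are given as CPM, the UMIs of a gene in all cells of a class scaled to a class total of 1000000, with an exact 95% Poisson interval in parentheses that covers counting error only. Day 10 types were ENCC, neuro-epithelial progenitor (NEP), non-neural ectoderm (NNE) and cranial placode (CP); day 15 types were ENCC, NEP, the placode clusters CP1 and CP2, and mesenchyme (Mes). SOX10, a neural crest factor, was at 120 CPM in day 10 ENCCs and 103 CPM in day 15 ENCCs, against at most 29.9 CPM in any other type. Some types carried markers of other types. The NEP clusters of both days carried the NNE marker KRT8, at 483 CPM at day 10 and 341 CPM at day 15, beside PAX6 at 572 and 112 CPM. Day 10 NEP cells also had the NEP markers WNT2B at 827 CPM and SFRP2 at 468 CPM, while SOX2 was at 16.1 CPM and LHX2 at 0. The placode cluster CP2 carried PAX6 at 381 CPM. Day 10 and day 15 clusters of the same name other than ENCC were not compared with each other. CP2 and Mes held 43 and 47 cells.

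The sequence just before the gene is shown for ID1 and MSX2, whose levels went together across cell classes, and for ID4, whose level did not follow them. Sequences are from RefSeq on GRCh38.p14, plus strand, at chr20:31605039-31605282 for ID1, chr5:174724332-174724532 for MSX2 and chr6:19837120-19837369 for ID4, and each ends before the first base annotated for its gene. Capitals mark the TATA box letters TATAAA, the CCAAT box and the GC box letters GGGCGG on either strand, and these matches overlap in places.
ID1: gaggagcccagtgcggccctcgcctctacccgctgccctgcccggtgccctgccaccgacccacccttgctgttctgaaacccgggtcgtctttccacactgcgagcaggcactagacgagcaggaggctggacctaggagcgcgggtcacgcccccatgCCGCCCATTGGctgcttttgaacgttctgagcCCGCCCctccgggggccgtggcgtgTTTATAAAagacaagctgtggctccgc
MSX2: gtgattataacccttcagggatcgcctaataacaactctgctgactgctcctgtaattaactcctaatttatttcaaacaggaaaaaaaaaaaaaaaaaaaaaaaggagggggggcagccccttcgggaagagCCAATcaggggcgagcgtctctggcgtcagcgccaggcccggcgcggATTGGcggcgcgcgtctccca
ID4: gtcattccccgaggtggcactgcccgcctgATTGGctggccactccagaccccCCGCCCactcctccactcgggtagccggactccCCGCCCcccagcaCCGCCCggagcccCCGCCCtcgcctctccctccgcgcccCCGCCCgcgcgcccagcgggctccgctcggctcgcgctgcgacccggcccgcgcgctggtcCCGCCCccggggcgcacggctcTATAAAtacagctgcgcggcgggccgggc
ID1 and ID4 had TATAAA near the end of the printed stretch, whereas MSX2 had none and had 2 CCAAT matches. In windows of 300 bases around gene starts, 11.5% of 35116 RefSeq windows held TATAAA, 34.6% held CCAAT and 45.0% held GGGCGG. The motif GGCGCC, bound by BMP-activated SMADs, occurred in 19.2% of windows, and among the 9 members with a window it was present for BAMBI, with 3 matches, and for 1 of the 3 BMP4 starts, with 2. GTCTAGAC, the palindrome first selected with SMAD proteins, occurred in 0.202% of windows and in that of SMAD6 alone among the members. A match is only a run of letters, and its absence covers only these windows.

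At day 10 ID1 and ID2 were far higher in NNE and NEP than in ENCCs, and ID3 and ID4 had other orders, as the plot of levels by type shows. ID1 (chromosome 20, 31605283 to 31606515, plus strand, GRCh38) was at 1537 CPM (1481–1595) in NNE, 671 CPM (657–684) in NEP, 95.7 CPM (84.0–109) in CP and 66.1 CPM (63.5–68.8) in ENCCs. No 2 neighbours in that order had overlapping intervals. ID2 (chromosome 2, 8678845 to 8684453, plus strand) was at 547 CPM (535–560) in NEP and 510 CPM (478–544) in NNE, and at 61.4 CPM (52.1–71.9) in CP and 61.3 CPM (58.8–63.9) in ENCCs. Here NEP overlapped NNE, and CP overlapped ENCC. ID3 (chromosome 1, 23557918 to 23559794, minus strand) had another order, with 1585 CPM (1564–1606) in NEP, 714 CPM (705–722) in ENCCs, 326 CPM (304–349) in CP and 322 CPM (297–349) in NNE. NNE, the type with the most ID1, thus shared the lowest ID3 level with CP. ID4 (chromosome 6, 19837386 to 19840684, plus strand) was low throughout, between 4.79 CPM (2.47–8.36) in CP and 18.4 CPM (12.8–25.7) in NNE.

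The ligands and MSX2 followed the epithelial types as well. BMP4 (chromosome 14, 53949736 to 53958761, minus strand) was at 147 CPM (130–166) in NNE and 117 CPM (111–122) in NEP, against 6.87 CPM (6.06–7.77) in ENCCs and 4.79 CPM (2.47–8.36) in CP. A BMP4 UMI was seen in 57.7% of NNE cells (Clopper-Pearson 51.2–64.1), 49.0% of NEP cells (46.7–51.3) and 3.47% of ENCCs (2.98–4.03). After thinning every cell to 3000 UMIs these shares were 34.0%, 27.9% and 1.46%, in the same order. BMP7 (chromosome 20, 57168748 to 57266629, minus strand), a related ligand, peaked in NEP instead, at 28.1 CPM (25.4–31.1), with 13.0 CPM (8.33–19.3) in NNE, 11.2 CPM (7.42–16.1) in CP and 4.52 CPM (3.86–5.26) in ENCCs. MSX2 (chromosome 5, 174724533 to 174730893, plus strand) was at 196 CPM (176–217) in NNE, 54.7 CPM (50.9–58.7) in NEP, 5.17 CPM (4.46–5.96) in ENCCs and 3.19 CPM (1.38–6.29) in CP. A MSX2 UMI was seen in 72.4% of NNE cells, or 43.0% after thinning, and in 31.0% of NEP cells. Both BMP4 and MSX2 thus set NNE and NEP apart from ENCCs and CP, whose intervals overlapped for each gene.

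The feedback inhibitors gave few UMIs at day 10. BAMBI (chromosome 10, 28677342 to 28682939, plus strand), a receptor that lacks the kinase domain, was at 17.3 CPM (11.9–24.5) in NNE and between 1.60 and 3.49 CPM in the other day 10 types. SMAD6 (chromosome 15, 66702228 to 66782848, plus strand), an inhibitory SMAD, gave 14 UMIs in NNE, equal to 7.58 CPM (4.15–12.7), and 0.798 to 2.35 CPM elsewhere. SMAD7 (chromosome 18, 48919853 to 48952052, minus strand), which brings ubiquitin ligases to the receptors, stayed between 0.514 and 2.39 CPM. NNE thus held the highest level of ID1, ID4, BMP4, SMAD6, BAMBI and MSX2 among day 10 types, although its ID4 interval overlapped that of NEP. A difference was called where the highest and lowest class were at least 2-fold apart on CPM + 1 with intervals that did not overlap, among genes at 5 CPM or more in 1 class. Of the 10 members, 9 were called across day 10 types, against 35.5% of 10873 genes, and SMAD7 was below the minimum. With NEP and NNE left out, 7 members reached 5 CPM and 3 were called, ID3, ID4 and BMP7. The share over all genes was not taken without these types, so this count has no background.

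**Figure D1:**
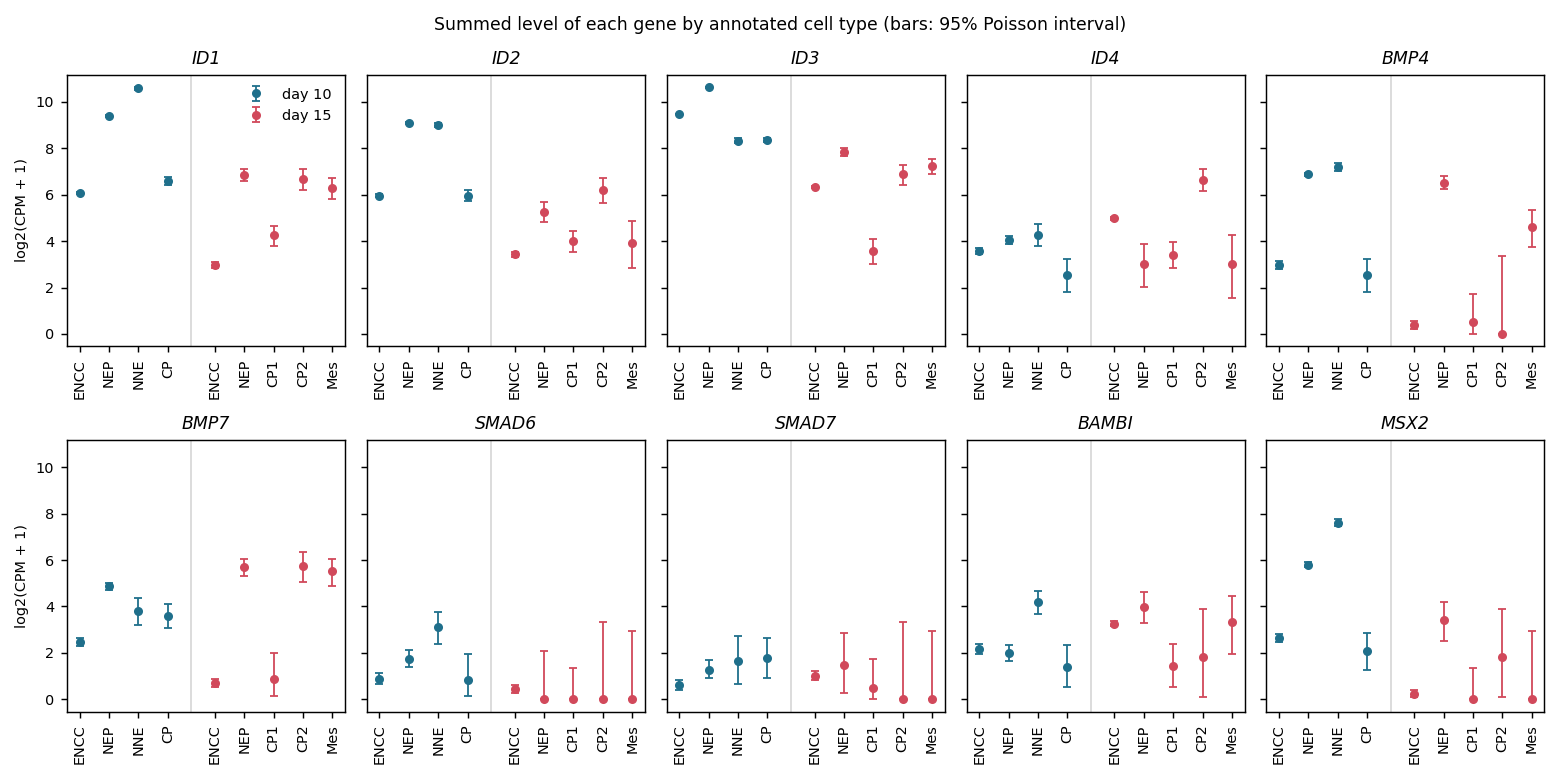
Summed level of each gene, as log2(CPM + 1), by annotated type at day 10 (blue) and day 15 (red), with bars for the exact 95% Poisson interval of the sum in 1 library. At day 10, BMP4 and MSX2 sat far higher in NEP and NNE than in ENCCs, while at day 15 ENCCs had the lowest ID1 level, at 6.77 CPM.

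At day 15 the members were again unevenly spread, with ENCCs lowest for ID1, ID2 and BMP7. ID1 was at 115 CPM (96.3–136) in NEP, 102 CPM (73.2–138) in CP2, 76.7 CPM (55.5–103) in Mes, 18.0 CPM (13.0–24.2) in CP1 and 6.77 CPM (6.10–7.49) in ENCCs. ID2 was at 72.1 CPM (48.3–104) in CP2, 37.5 CPM (27.1–50.5) in NEP, 15.1 CPM (10.6–20.9) in CP1, 14.3 CPM (6.16–28.1) in Mes and 9.88 CPM (9.08–10.7) in ENCCs, where Mes overlapped both CP1 and ENCC. ENCCs thus had less ID1 than every other type by more than counting error. ID3 was again different, at 229 CPM (202–259) in NEP, 148 CPM (118–183) in Mes, 117 CPM (85.9–155) in CP2, 79.4 CPM (77.1–81.8) in ENCCs and 10.9 CPM (7.11–15.9) in CP1. ID4 was at 99.5 CPM (71.1–135) in the 43 CP2 cells, 30.6 CPM (29.2–32.1) in ENCCs and between 6.97 and 9.63 CPM in NEP, Mes and CP1. ENCCs thus ranked second for ID4 and last for ID1 and ID2.

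The ligands BMP4 and BMP7 were far higher in minor types of the crestospheres than in ENCCs. BMP4 was at 90.7 CPM (74.1–110) in the 104 NEP cells and 23.2 CPM (12.3–39.6) in Mes, and in ENCCs 17 UMIs gave 0.304 CPM (0.177–0.487). Cells with a BMP4 UMI were 42.3% of NEP cells (32.7–52.4) and 0.345% of ENCCs (0.201–0.551), or 18.3% and 0.0405% after thinning. CP2 had no BMP4 UMI, which allows up to 7.46 CPM. BMP7 was at 52.2 CPM (32.3–79.9) in CP2, 50.6 CPM (38.4–65.4) in NEP and 44.6 CPM (28.9–65.8) in Mes, with overlapping intervals, and at 0.609 CPM (0.422–0.851) in ENCCs, which overlapped CP1. CP2 thus carried BMP7 without detectable BMP4, whereas NEP and Mes carried both ligands. MSX2 was at 9.59 CPM (4.79–17.2) in NEP, from 11 UMIs, and at 0.179 CPM (0.0859–0.329) in ENCCs. BAMBI was at 14.8 CPM (8.63–23.7) in NEP, 8.92 CPM (2.90–20.8) in Mes, 8.59 CPM (7.84–9.40) in ENCCs, 2.49 CPM (0.0630–13.9) in CP2 and 1.67 CPM (0.456–4.29) in CP1. SMAD6 gave 20 UMIs in ENCCs and 0 in each other type, where 0 allows between 1.26 CPM in CP1 and 7.46 CPM in CP2, so no order could be read. By the same rule 8 members were called across day 15 types, against 43.0% of 12069 genes, and SMAD6 and SMAD7 were below the minimum. Without NEP, 7 members reached 5 CPM and the count was 6, since MSX2 and BAMBI were no longer called. The share over all genes was not taken for that setting.

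Some cells deposited as ENCCs at day 10 went against that label. Of 4921 ENCCs, 256 (5.20%) lay outside the numbered subclusters and carried the non-neural-crest entry as their subtype. Their SOX10 level was 26.2 CPM against 126 CPM in the numbered subclusters, whereas PAX6 was at 458 CPM against 6.69 CPM, close to the 572 CPM of NEP cells. These cells held much of the BMP-related signal of the ENCC class. They had 198 of its 254 BMP4 UMIs, a share of 78.0% (72.3–82.9), and 55.5% (48.1–62.7) of its MSX2 UMIs. The same 256 cells accounted for 45.8% (43.8–47.8) of ID1, 41.1% (39.0–43.1) of ID2, 31.7% (24.8–39.4) of BMP7 and 11.5% (11.1–11.9) of ID3 UMIs. For ID4 and BAMBI their shares of 6.47% (4.27–9.33) and 3.10% (0.851–7.75) did not differ from the share of cells by more than counting error. The share of cells is a rough baseline for shares of UMIs. These cells were deeper, with a median of 8376.5 UMIs against 6943 in numbered ENCCs. They held 2249527 of the 36948088 UMIs of the class. Their own levels were 497 CPM for ID1, 413 CPM for ID2, 1351 CPM for ID3, 88.0 CPM for BMP4 and 47.1 CPM for MSX2, and their BAMBI level was 1.78 CPM (0.484–4.55). With only numbered subclusters as ENCCs, ID1 was at 38.2 CPM, ID2 at 38.5 CPM, BMP4 at 1.61 CPM and MSX2 at 2.45 CPM, and the same count of 9 members was called across day 10 types. At day 15 only 27 ENCCs lay outside, with 2 of 378 ID1 UMIs.

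ENCCs of both stages were then compared to ask how the BMP-related transcripts differed between the induction monolayer and the crestospheres. ID1 was at 66.1 CPM in day 10 ENCCs and 6.77 CPM in day 15 ENCCs, a log2 ratio of -3.11. ID2 was at 61.3 and 9.88 CPM, a log2 ratio of -2.52, and ID3 at 714 and 79.4 CPM, a log2 ratio of -3.15. These 3 genes were thus lower at day 15, with intervals far apart. BMP4, at 6.87 and 0.304 CPM, and MSX2, at 5.17 and 0.179 CPM, had log2 ratios of -2.59 and -2.39. ID4 and BAMBI went the other way, ID4 from 10.9 CPM (9.84–12.0) to 30.6 CPM (29.2–32.1), a log2 ratio of 1.41, and BAMBI from 3.49 CPM (2.91–4.15) to 8.59 CPM (7.84–9.40), a log2 ratio of 1.10. Of the members, 2 were called higher and 5 lower at day 15, where 8.26% of 9257 genes were called higher and 6.02% lower. BAMBI was no longer called with a pseudocount of 5 CPM, where its log2 ratio was 0.68, or over all deposited cells, where it was 0.82. MSX2 was no longer called with that pseudocount, at -0.97, nor under TMM scaling, at -2.30, or by the mean CPM of single cells, at -2.26, since it did not reach 5 CPM under the last 2 settings. BMP7 (4.52 and 0.609 CPM), SMAD6 (0.839 and 0.358 CPM) and SMAD7 (0.514 and 1.00 CPM) did not reach 5 CPM in either class. In shares of thinned cells with a UMI, ID3 was at 72.7% (71.4–73.9) at day 10 and 16.7% (15.6–17.7) at day 15, ID4 at 3.15% (2.68–3.68) and 8.53% (7.77–9.35), and BAMBI at 1.08% (0.808–1.41) and 2.45% (2.04–2.92). Without thinning the shares were 88.6% and 36.4% for ID3, 7.46% and 26.4% for ID4, and 2.56% and 9.00% for BAMBI.

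The stage ratios depended in size on the cells outside the subclusters. Between numbered ENCCs the log2 ratio was -2.33 for ID1, -1.87 for ID2, -3.06 for ID3, -1.02 for BMP4 and -1.55 for MSX2, and BMP4 and MSX2 were then below 5 CPM at both stages. ID4 kept 10.8 and 30.6 CPM, and BAMBI 3.60 and 8.55 CPM. The median log2 ratio of all genes tested was -0.14, and 0.05 under TMM scaling. Measured from the first of these medians, ID1 stood at -2.97, ID2 at -2.38, ID3 at -3.01, BMP4 at -2.46, MSX2 at -2.25, ID4 at 1.55 and BAMBI at 1.23. Of the genes called, 57.9% were higher at day 15, and 71.2% under TMM scaling. In G1 cells alone the log2 ratio of ID4 was 0.96, which is under 2-fold, with BAMBI at 1.52.

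**Figure D2:**
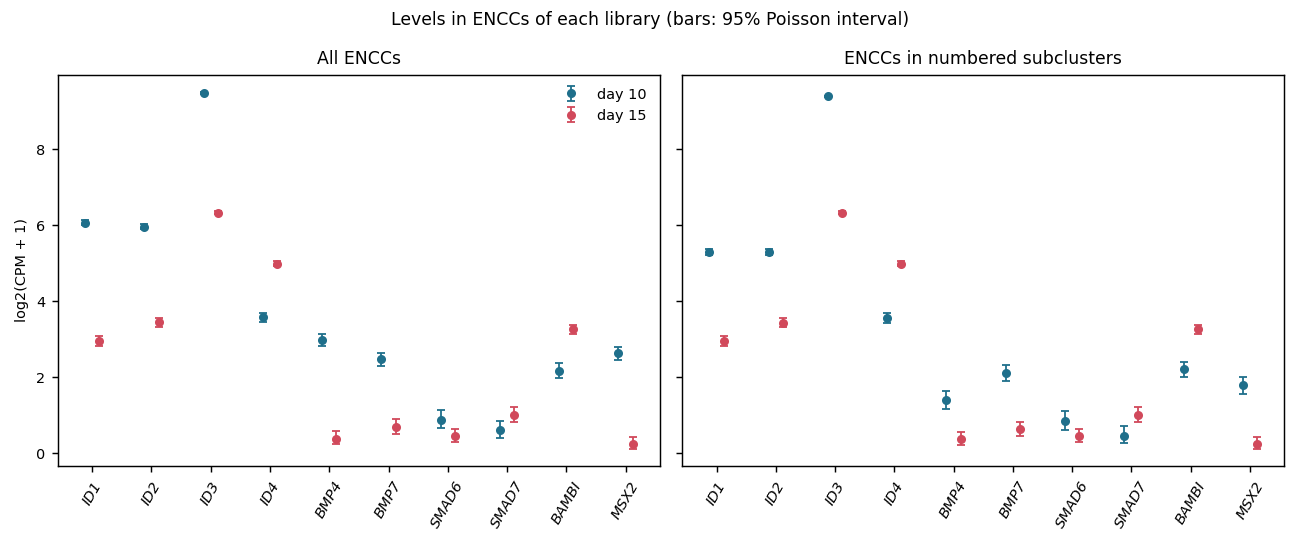
Level of each gene, as log2(CPM + 1), in ENCCs of day 10 (blue) and day 15 (red), for all ENCCs on the left and for numbered subclusters on the right, with exact 95% Poisson intervals from 1 library per stage. ID1, ID2 and ID3 sat lower at day 15 in both panels and ID4 and BAMBI higher, while the day 10 points of BMP4 and MSX2 lay lower in the right panel, at 1.61 and 2.45 CPM.

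Within day 10 ENCCs the members were more even than between types. ID1 was at 36.3, 35.0 and 36.9 CPM in ENCC 1, ENCC 2 and ENCC 3, with overlapping intervals, and at 90.5 CPM (75.3–108) in the 187 cells of ENCC 4. ID2 was at 35.5 and 31.8 CPM in ENCC 1 and ENCC 2, 62.8 CPM (52.8–74.0) in ENCC 3 and 88.3 CPM (73.3–105) in ENCC 4. ID3 ran from 638 CPM (627–648) in ENCC 1 over 684 CPM (666–702) in ENCC 2 and 787 CPM (751–825) in ENCC 3 to 1000 CPM (948–1055) in ENCC 4, which is under 2-fold. ENCC 4 was thus the numbered subcluster with the highest ID1, ID2 and ID3 levels, although for ID2 its interval overlapped that of ENCC 3 at the edge. ENCC 4 also had the most NEUROG1, a proneural bHLH factor, at 117 CPM against 8.54 to 15.6 CPM in the other numbered subclusters. ID4 was between 9.67 CPM (8.44–11.0) in ENCC 1 and 20.3 CPM (13.5–29.3) in ENCC 4, and BMP4 between 1.45 and 2.23 CPM. By the rule 2 members were called, ID1 and ID2, against 9.32% of 9405 genes.

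Within day 15 ENCCs, ENCC 3' stood apart. Its ID3 level was 22.5 CPM (19.3–25.9), against 77.0 CPM (73.1–81.1) in ENCC 1', 101 CPM (97.1–105) in ENCC 2' and 43.5 CPM (33.7–55.4) in ENCC 4'. ID1 was likewise lowest in ENCC 3', at 1.95 CPM (1.12–3.17), against 7.69 CPM (6.49–9.04), 7.12 CPM (6.14–8.20) and 15.2 CPM (9.62–22.8) in ENCC 1', ENCC 2' and ENCC 4'. ID2 was at 5.61 CPM (4.11–7.49) in ENCC 3' and 12.1 CPM (10.9–13.5) in ENCC 2'. ID4 did not follow, with 34.5 CPM (30.6–38.8) in ENCC 3', 34.1 CPM (31.9–36.3) in ENCC 2', 25.1 CPM (22.9–27.5) in ENCC 1' and 18.5 CPM (12.3–26.7) in ENCC 4'. The subcluster with the least ID1 and ID3 was thus at the top level of ID4, together with ENCC 2'. BAMBI was at 17.8 CPM (11.7–25.9) in ENCC 4', 12.0 CPM (9.71–14.6) in ENCC 3', 7.75 CPM (6.73–8.88) in ENCC 2' and 7.48 CPM (6.30–8.81) in ENCC 1'. NOG, the secreted antagonist noggin, was at 35.6 CPM in ENCC 4' and 1.83 to 10.6 CPM in the other 3. The 138 cells of ENCC 4' also had JUN, an early response gene, at 113 CPM against 9.54 to 20.2 CPM, and the 10 dissociation response genes summed to 336 CPM there against 113 to 170 CPM, whose part in the other values was not tested. By the rule ID1, ID3 and BAMBI were called, 3 members, against 24.2% of 9202 genes. Among subclusters of at least 200 cells, which leaves out ENCC 4', the count was 2 of 5 members tested, without a share over all genes.

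**Figure D3:**
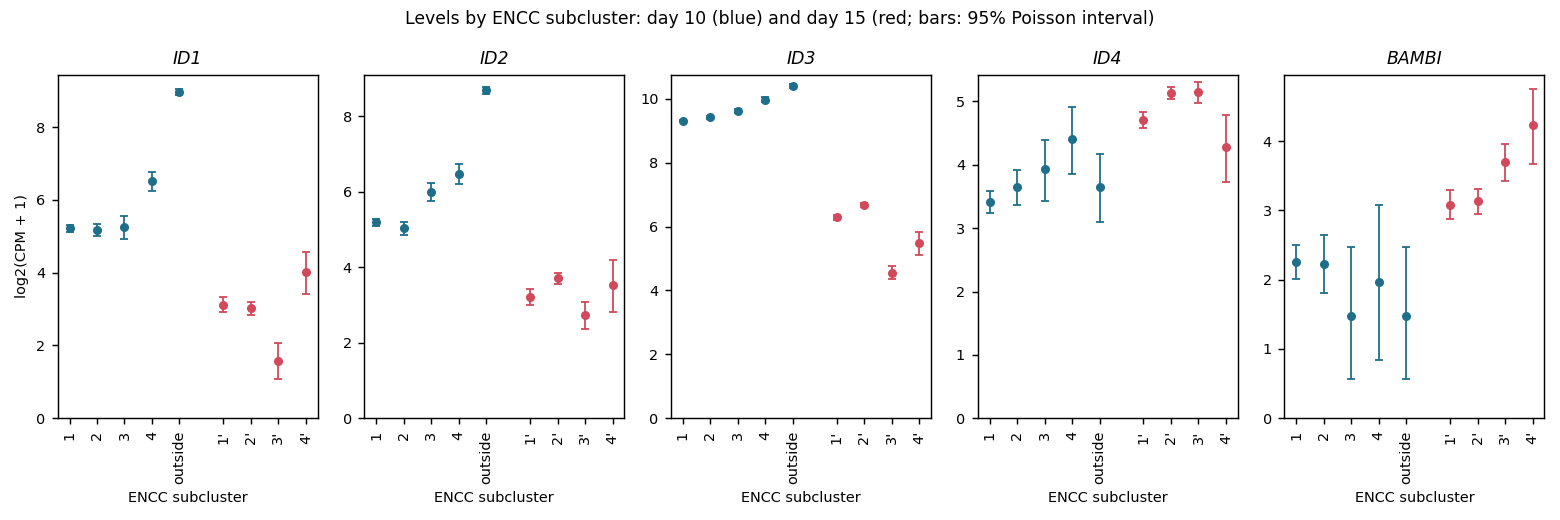
Levels of ID1, ID2, ID3, ID4 and BAMBI, as log2(CPM + 1), in the ENCC subclusters of day 10 (blue, with the 256 cells outside them) and day 15 (red), with exact 95% Poisson intervals from 1 library each. ID1 reached 497 CPM outside the subclusters at day 10, and ENCC 3' had the lowest ID1 and ID3 points of the day 15 subclusters while its ID4 point was among the highest, at 34.5 CPM.

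The annotated cell cycle phase gave a further split of the ENCCs. Over all day 10 ENCCs, ID1 was at 91.6 CPM (86.5–97.1) in G1, 48.3 CPM (44.4–52.4) in S and 56.9 CPM (52.7–61.3) in G2M. In the numbered subclusters alone it was at 35.6 CPM (32.2–39.2), 37.2 CPM (33.7–40.8) and 41.7 CPM (38.1–45.6), with neighbouring intervals overlapping. The higher G1 level of ID1 was therefore held by the cells outside the subclusters, of which 163 of 256 were annotated as G1. For ID3 the split was present in numbered cells too, at 777 CPM (761–794) in G1, 703 CPM (688–719) in S and 541 CPM (527–554) in G2M. At day 15 the order of ID3 was the reverse, with 57.5 CPM (54.0–61.2) in G1, 89.5 CPM (85.7–93.3) in S and 89.9 CPM in G2M of numbered ENCCs. ID1 at day 15 was highest in G2M, at 12.3 CPM (10.5–14.2), with 5.17 CPM (4.16–6.36) in G1 and 4.62 CPM in S. ID4 was at 27.0 CPM (24.6–29.6), 32.3 CPM (30.1–34.7) and 32.3 CPM (29.4–35.3) in G1, S and G2M at day 15, where G1 overlapped G2M but not S. At day 10 it was at 13.5 CPM (11.4–15.8) in G1, 8.27 CPM (6.70–10.1) in S and 10.8 CPM (9.01–12.9) in G2M, where G1 and S did not overlap. G1 was thus the phase with the most ID3 at day 10 and the least at day 15. In G1 cells alone the log2 ratio of ID3 between all ENCCs of both stages was -3.86.

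**Figure D4:**
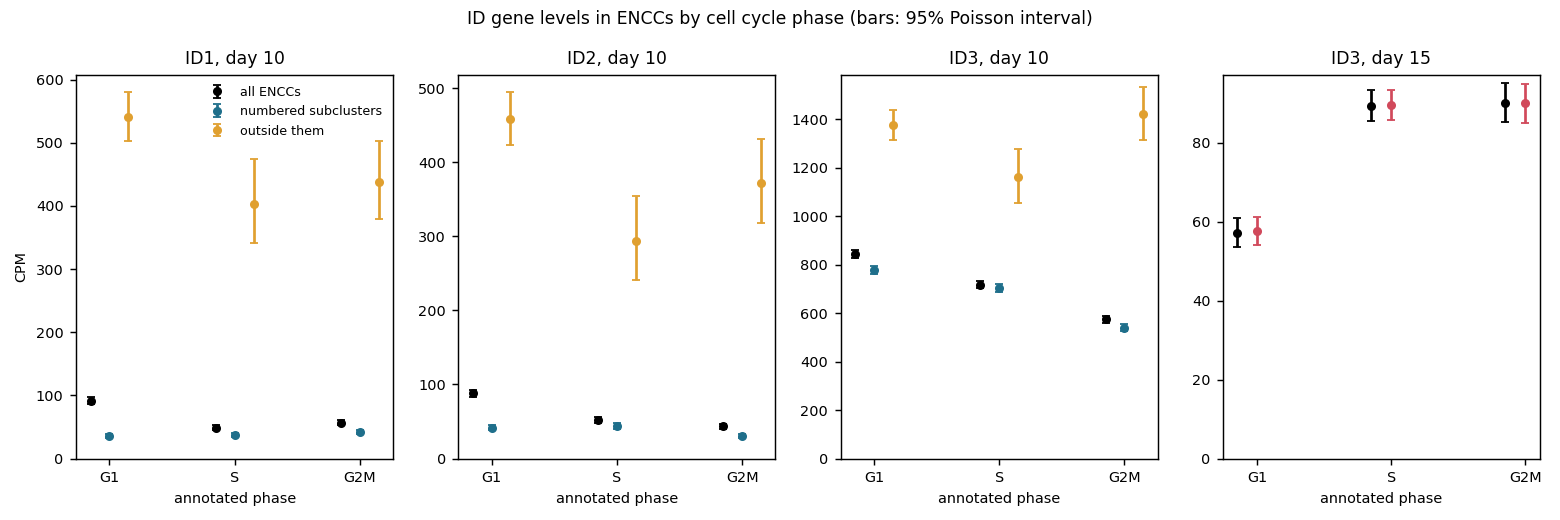
Level in CPM of ID1, ID2 and ID3 in day 10 ENCCs and of ID3 in day 15 ENCCs by annotated phase, for all ENCCs (black), numbered subclusters (blue or red) and cells outside them (orange, day 10 only), with exact 95% Poisson intervals. The G1 point of ID1 lay at 91.6 CPM for all ENCCs and at 35.6 CPM for numbered ones, and ID3 was highest in G1 at day 10 and lowest in G1 at day 15.

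Droplets can carry free RNA of other cells, so low levels in ENCCs were set beside genes that mark other types in the same library. In numbered day 10 ENCCs, BMP4 was at 1.38% (1.04–1.81) of its NEP level, similar to the NEP markers WNT2B at 1.30% (1.17–1.44) and PAX6 at 1.17% (1.02–1.33) and to KRT19, an epithelial keratin, at 1.51% (1.26–1.78). The NEP marker SFRP2 was higher, at 2.74% (2.48–3.01). The BMP4 level in these ENCCs, relative to NEP, was thus close to that of WNT2B, PAX6 and KRT19 and below that of SFRP2. MSX2, at 4.48% (3.54–5.61), lay beside KRT8 at 4.43% (4.10–4.78) and KRT18 at 4.03% (3.73–4.34). ID1 at 5.69% (5.37–6.03), ID2 at 7.03% (6.63–7.45) and BMP7 at 11.7% (9.40–14.4) lay above all of these marker genes and below EPCAM at 27.3% (20.7–35.8) and SOX2 at 133% (115–155). CDH1, at 19.4% (8.52–41.3), was too low to place against BMP7. ID3 at 42.4% (41.7–43.2) and ID4 at 69.1% (58.4–82.0) were much closer to NEP, and BAMBI, at 120% (84.3–175), was not lower at all. In numbered day 15 ENCCs, BMP4 was at 0.318% (0.175–0.541) of NEP. By point value, PAX6 at 0.128%, KRT19 at 0.161% and SFRP2 at 0.233% (0.180–0.298) lay below it. KRT18 at 0.578%, KRT8 at 1.38%, WNT2B at 2.08%, EPCAM at 9.36% and SOX2 at 74.3% lay above it. ID1 was at 5.88% (4.81–7.23) and ID3 at 34.7% (30.6–39.5). The part of free RNA in these values was not tested.

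**Figure D5:**
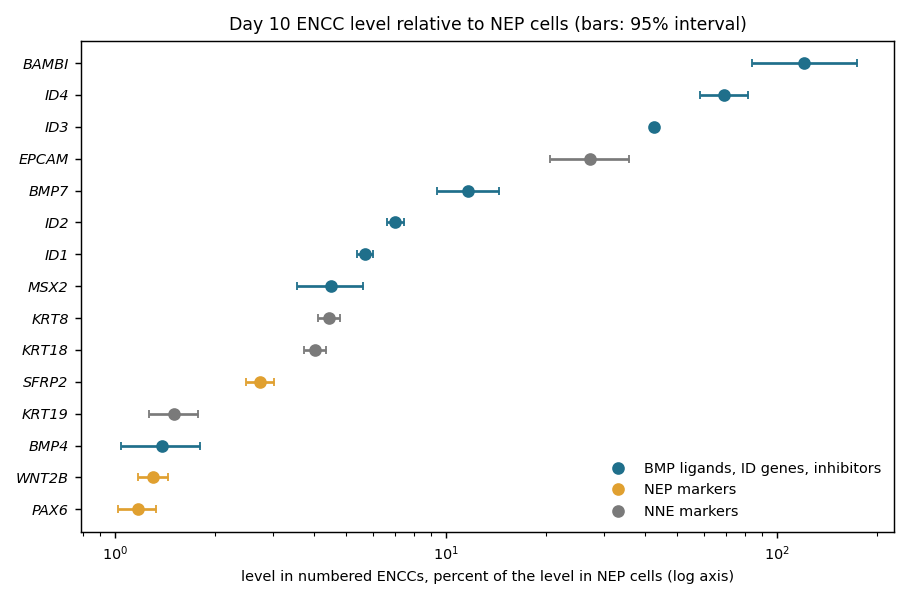
Level in numbered day 10 ENCCs as a percent of the level in day 10 NEP cells, on a log axis, for members (blue), NEP markers (orange) and NNE markers (grey), with 95% intervals (SMAD6, SMAD7, CDH1 and SOX2 are not drawn). BMP4 lay among WNT2B, PAX6 and KRT19 near 1.38%, and ID3, ID4 and BAMBI lay at 42.4% and above.

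In single cells, ID1, ID2 and ID3 UMIs tended weakly to fall in the same cells. Among numbered day 10 ENCCs thinned to 3000 UMIs, an ID2 UMI was found in 19.3% (15.7–23.4) of the 424 cells with ID1 and in 8.56% (7.73–9.44) of the 4241 cells without it. ID3 was found in 89.4% (86.2–92.1) of the 445 cells with ID2 and in 69.7% (68.3–71.1) of those without. Of the 424 cells with ID1, 0 (up to 0.866%) had a BMP4 UMI, and 0.566% (0.363–0.841) of those without did, which counting error does not separate. At day 15, 40.9% (30.8–51.5) of the 93 cells with ID1 and 16.3% (15.2–17.3) of cells without it had ID3. The rank correlations behind these shares were weak, 0.11 for ID1 with ID2 and 0.20 for ID2 with ID3 over the 4665 day 10 cells, which share 1 library.

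The rest of the pathway was read from fixed lists, with the same rule and the ENCCs of both stages. Over all genes, 8.26% of 9257 were called higher at day 15 and 6.02% lower. Of the 13 other ligands, 1 reached 5 CPM and was called, BMP5, at 7.66 and 2.52 CPM at day 10 and day 15. Among 11 receptors and co-receptors, 7 reached it, with a median log2 ratio of 0.33, and 2 were called. ACVR1, the type I receptor ALK2, was at 2.41 and 20.1 CPM, a log2 ratio of 2.63, and RGMA, a BMP co-receptor, at 10.6 and 2.69 CPM. The other 5 receptors tested were within 2-fold, and BMPR1A, another type I receptor, was at 13.9 and 12.7 CPM. Of 13 secreted antagonists 2 reached it, NOG being called higher at day 15, at 1.43 and 5.89 CPM, and TWSG1 not called, at 18.6 and 20.8 CPM. Of 8 SMADs and regulators 7 reached it and 0 were called, with a median log2 ratio of -0.23 against -0.14 for all genes tested. SMAD1, SMAD5 and SMAD4, the mediators of the signal, were at 8.85, 35.6 and 13.6 CPM at day 10 and 8.40, 30.3 and 12.1 CPM at day 15. SMAD9, a further mediator, was at 5.98 CPM (5.22–6.82) and 2.95 CPM (2.52–3.44), a log2 ratio of -0.82 on CPM + 1. Over all ENCCs, SMAD1, SMAD5 and SMAD4 thus had log2 ratios between -0.23 and -0.07, and SMAD9 had -0.82. In the same cells ID1, ID2 and ID3 had log2 ratios of -2.52 or lower. Between numbered ENCCs the ratios of ID1, ID2 and ID3 were -2.33, -1.87 and -3.06.

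Of 8 other BMP-responsive factors 2 reached 5 CPM in ENCCs, and both were called lower at day 15. For this and the next lists, 8.26% of 9257 genes were called higher and 6.02% lower. GATA3, an ectodermal zinc-finger factor, was at 7.50 and 0.107 CPM. In numbered day 10 ENCCs it was at 1.96 CPM, below the minimum, so its call rested on the cells outside the subclusters. ATOH8, a bHLH factor, was at 5.58 and 1.13 CPM. Of 9 bHLH partners of the ID proteins 5 reached it, with a median log2 ratio of -1.58, and 3 were called, all lower at day 15. NEUROG1 was at 13.2 and 0.179 CPM and TCF4 at 79.5 and 26.0 CPM, while TCF12, at 68.8 and 34.2 CPM, was just under 2-fold. NEUROG1 and TCF4 were thus lower in the same ENCCs as ID1, ID2 and ID3. Of 13 genes of the TGF-beta and activin branch 3 reached 5 CPM and 0 were called, with a median log2 ratio of -0.0023. Of 10 dissociation response genes 8 reached it and 3 were called, JUN and DUSP1 higher and EGR1 lower at day 15.

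Among day 10 types the other BMP-responsive factors were mostly highest in NNE. Of these factors 7 reached 5 CPM and 7 were called, 6 of them highest in NNE, where MSX1, at 50.4 CPM, was close to its 48.4 CPM in NEP. GATA3 was at 159 CPM in NNE and 88.7 CPM in NEP, and DLX3 at 39.5 and 5.84 CPM. GDF6, at 20.6 CPM, was highest in NNE beside BMP4, and GDF7, at 12.0 CPM, in NEP beside BMP7. BMP5, the other ligand called, had its highest level in CP, at 16.0 CPM (11.4–21.7), with 3.85 CPM (2.89–5.02) in NEP. SMAD9, the receptor-activated mediator, was at 64.5 CPM in NEP and 3.79 CPM in NNE, although NNE held the most ID1. Of the receptors 0 of 5 were called, of the antagonists 2 of 3 and of the SMADs and regulators 3 of 7. The bHLH partners were called for 6 of 6, each with its highest level in CP. Over all genes, 35.5% of 10873 were called across these types. At day 15 the highest level of HEY1 was in NEP, at 94.1 CPM, and that of MSX1 in Mes, at 103 CPM, where MSX2 had no UMI, which allows 5.35 CPM. The dissociation response genes summed to 607 CPM in CP2 and 430 CPM in CP1 against 142 to 178 CPM in the other day 15 types, and their part in the ID levels of CP2 was not tested.

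Across 16 classes of both libraries, the profile of log2(CPM + 1) linked the members into a set and a remainder. ID1 had a Pearson correlation of 0.93 with ID2, 0.89 with MSX2, 0.82 with BMP4, 0.78 with BMP7 and 0.66 with ID3, and of -0.23 with ID4 and -0.15 with BAMBI. These are descriptions over classes that share 2 libraries. The genes most like BMP4 were DSP, CYP1B1 and MYL9, with 0.97, 0.96 and 0.96, those most like MSX2 were HSBP1L1, GATA3 and ERP29, with 0.96 or more, and those most like ID1 were HLA-DMA, DHRS3 and HOTAIRM1, with 0.93 to 0.94. ID2 was most like GATA3-AS1, ID3 like MED28, BMP7 like KLHDC9 and BAMBI like HELZ, whereas the best match of ID4, NUTM2B-AS1, reached only 0.82. SMAD6 and SMAD7 were too low for this measure.

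Cells that the authors left out also carried these transcripts. Their median depth was 3679 UMIs at day 10, under the 7101 UMIs of kept cells, and 21367 UMIs at day 15, above the 11089 UMIs of kept cells. At day 10 the 2332 removed cells had ID1 at 430 CPM (419–440), BMP4 at 71.6 CPM (67.4–76.0) and MSX2 at 43.8 CPM (40.6–47.3), between the ENCC and NEP levels. At day 15 the 984 removed cells had ID1 at 22.7 CPM (20.9–24.7) and BMP4 at 5.40 CPM (4.52–6.40), above the ENCC levels, and ID4 at 20.5 CPM (18.8–22.4), below them. Over all deposited cells the log2 ratio of day 15 over day 10 was -4.34 for ID1, -3.56 for ID3 and 1.03 for ID4, where the share of cell types differs as well as their levels. ID2-AS1 overlaps ID2 on the other strand and gave 29 UMIs at day 10 and 10 at day 15, and BMP7-AS1, inside BMP7, gave 0 in both libraries. MSX2 has a processed pseudogene, MSX2P1, on chromosome 17, with which reads could be shared.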

How the data were processed

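Droplet 3′ libraries of H9-derived cultures, 1 per stage, were analysed. According to the study's methods, the authors extracted UMI matrices with kallisto and bustools, and the submitters' processing notes name Cell Ranger, Seurat 4.0.4 and GRCh38. The authors deposited raw counts (UMIs per gene and cell, without normalization), with metadata giving counts of UMIs and genes per cell, the percent of mitochondrial and ribosomal UMIs as deposited, phase, type and subtype. Cell totals equalled the deposited values for all cells. The entry ENC is written ENCC here. The authors left out cells by limits on genes, UMIs and mitochondrial percent, and clusters of low quality, and regressed these measures, ribosomal percent and the phase scores before clustering. No doublet caller was run here.

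Counts were summed by class and scaled to CPM (Python 3.11.15, SciPy 1.17.1). Log2 ratios used CPM + 1, which understates changes of low genes. With 1 library per group there was no replicate check and no test. A gene was called at 2-fold or more with 95% Poisson intervals that did not overlap, among genes with 5 CPM in 1 class; for several classes the highest was set against the lowest. Shares carry Clopper-Pearson intervals and ratios to NEP exact conditional binomial ones, and a count of 0 was taken to allow 3 UMIs. All cover counting error only. Median depth was 6713 UMIs per cell at day 10 and 11770.5 at day 15; the floor was 0.0426 and 0.0353 CPM per library. Shares were also taken after thinning cells to 3000 UMIs without replacement. TMM factors came from edgeR 4.0.16. The likeness used classes of at least 40 cells and 10608 genes with at least 10 CPM in 1 class. Positions are from GENCODE 29 (GRCh38), sequences from RefSeq, which held windows for 9 of 10 members. The call rule was tested only on simulated Poisson counts drawn from day 10 ENCC means. Such counts hold no spread beyond counting error, so the test could not cover the spread between cells. In thinned numbered day 10 ENCCs the variance of ID3 was 2.63 times its mean. All 10 members are named. From the pathway lists, genes were named for the highest CPM or largest fold past 5 CPM, and GDF6, BMPR1A, SMAD4, SMAD9 and noggin within ENCC 4' were added after their values were seen. Some genes of the lists are not reported here by name. Members and lists were chosen with earlier results of these data known.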

Additional observations from a re-analysis of the deposited data

How the results depend on the processing

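No paired analysis was possible because each stage had 1 library. Under TMM scaling, totals without mitochondrial and ribosomal protein genes, a pseudocount of 5 CPM, no low-value filter, a filter at 20 CPM, thinned cells, the mean of single cells' CPM, G1 cells and, where they apply, limits on cells or classes, the counts of members called stayed within 1.5 times the value reported, with these exceptions. The filter at 20 CPM gave 4 members between stages, where 7 were called, and 1 among day 15 subclusters, where 3 were called, as fewer genes pass it. Totals without mitochondrial and ribosomal protein genes gave 5 among day 15 subclusters, with ID2 and SMAD7 added. Leaving out NEP and NNE, chosen after seeing the data, gave 3 among day 10 types, where 9 were called. Among types and subclusters, shares over all genes were taken in the reported setting only. Leaving out CP2 or NEP at day 15 and taking numbered ENCCs among day 10 types were also chosen after seeing the data, and gave 8, 6 and 9. ID4 lost the stage call in G1 cells, where BMP7 was called in its place. BMP4 lost it in numbered subclusters and with the filter at 20 CPM. BAMBI and MSX2 lost it with that filter and under other settings, as given beside the stage result. No stage ratio of a called member changed sign under any of these; BMP4 ranged from -1.02 in numbered subclusters to -3.51 over all deposited cells. BMP7, SMAD6, SMAD7, BAMBI and the ENCC levels of BMP4 and MSX2 rest on few UMIs per cell, so differences among their low classes were not detectable at this depth.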
